A study of Mus musculus with 6 samples.

Results

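The aminoacyl-tRNA synthetases described here are 36 genes, 20 counted as cytosolic and 16 as mitochondrial. They were chosen by name: cytosolic enzymes by their gene symbols, and mitochondrial ones by symbols ending in 2. A gene that makes enzymes for both compartments, as Gars and Kars do, was counted as cytosolic. All 36 were among the 46517 entries of the expression table, and all 36 were among the 12437 genes that had at least 1 CPM in at least 3 libraries and were tested. The study measured RNA of adult mouse heart muscle cells with and without the transcription factor TFEB. It comprised 3 wild-type and 3 TFEB-/- libraries, both from C57BL/6 mice of 3 months, whose hearts were taken out and dissociated to isolate cardiomyocytes. The promoter or Cre line behind the deletion, the sex of the mice and whether each library is a separate animal are not given in the sources used here. The p-values below therefore measure only the spread between these libraries, which may be technical.

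An aminoacyl-tRNA synthetase joins an amino acid to its tRNA, and the charged tRNA then brings that amino acid to the ribosome. Cytosolic ribosomes translate nuclear messages, whereas mitochondrial ribosomes translate the few respiratory chain subunits encoded in the mitochondrial genome, and most mitochondrial synthetases are separate nuclear-encoded enzymes. Some cytosolic synthetases sit together in a large multisynthetase complex held by scaffold proteins. TFEB is a helix-loop-helix factor that drives lysosomal and autophagy genes through sites built around CACGTG, and ATF4, the factor of the amino acid starvation response, drives several cytosolic synthetase genes through sites close to TGATGNAA.

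Promoter sequence in RefSeq (assembly GRCm38.p6) was at hand for 27 of the 36 genes, 13 cytosolic and 14 mitochondrial, and the 250 bases before each start were searched on both strands for CACGTG, for TCACGTGA, which contains it, and for TGATGNAA. The letters CACGTG were found in 3 promoters, Aars, Farsb and Iars, which is 11.1% of the 27 and compares with 6.05% of all 27025 promoters searched. TCACGTGA was found in 2 of them, Aars and Farsb, 7.41% against 0.803% of all. TGATGNAA was found in 3, Aars, Gars and Tars, 11.1% against 3.53% of all. The genes with a match were cytosolic. A match describes letters in a window and not a site. The 5 promoters with a match are shown, the matched letters in capitals, together with that of Sars, which has none and is the gene with the smallest adjusted p below. Aars lies at chr8:111033592-111033841 on the plus strand, Farsb at chr1:78488898-78489147 on the minus strand, Iars at chr13:49681880-49682129 on the plus strand, Gars at chr6:55037751-55038000 on the plus strand, Tars at chr15:11399659-11399908 on the minus strand and Sars at chr3:108445260-108445509 on the minus strand.

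Aars: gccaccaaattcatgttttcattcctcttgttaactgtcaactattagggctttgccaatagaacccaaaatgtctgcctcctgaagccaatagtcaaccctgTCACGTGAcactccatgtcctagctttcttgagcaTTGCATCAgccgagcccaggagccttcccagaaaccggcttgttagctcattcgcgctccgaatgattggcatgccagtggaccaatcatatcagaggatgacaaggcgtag

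Farsb: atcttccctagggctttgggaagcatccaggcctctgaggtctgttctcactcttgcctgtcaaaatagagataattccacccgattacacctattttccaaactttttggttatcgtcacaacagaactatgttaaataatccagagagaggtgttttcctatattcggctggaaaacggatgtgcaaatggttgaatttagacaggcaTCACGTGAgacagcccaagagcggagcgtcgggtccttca

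Iars: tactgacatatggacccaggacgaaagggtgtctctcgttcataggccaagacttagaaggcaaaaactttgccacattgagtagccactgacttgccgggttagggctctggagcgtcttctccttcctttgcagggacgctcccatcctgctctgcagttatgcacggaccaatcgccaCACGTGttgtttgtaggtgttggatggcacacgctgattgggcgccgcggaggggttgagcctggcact

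Gars: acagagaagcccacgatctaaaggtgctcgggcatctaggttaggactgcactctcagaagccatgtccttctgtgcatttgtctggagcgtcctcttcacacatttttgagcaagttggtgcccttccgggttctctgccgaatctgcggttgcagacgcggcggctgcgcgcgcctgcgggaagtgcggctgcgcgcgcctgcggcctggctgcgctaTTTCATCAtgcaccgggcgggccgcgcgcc

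Tars: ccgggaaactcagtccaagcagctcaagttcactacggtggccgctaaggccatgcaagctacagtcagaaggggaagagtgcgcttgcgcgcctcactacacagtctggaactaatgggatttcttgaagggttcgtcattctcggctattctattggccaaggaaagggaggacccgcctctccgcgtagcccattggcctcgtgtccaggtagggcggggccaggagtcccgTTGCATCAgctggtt

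Sars: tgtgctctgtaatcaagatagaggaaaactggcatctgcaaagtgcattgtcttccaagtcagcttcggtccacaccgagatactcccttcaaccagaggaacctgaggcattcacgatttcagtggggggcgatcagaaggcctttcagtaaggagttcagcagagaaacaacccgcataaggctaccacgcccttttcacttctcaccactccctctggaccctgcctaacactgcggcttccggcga

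Distances are from the RefSeq start. For Aars, GENCODE M21 begins the gene further upstream, at 111033144, so the window shown lies inside the GENCODE gene. TCACGTGA began 147 bases before the start of Aars and 40 bases before that of Farsb, and CACGTG began 69 bases before that of Iars. TGATGNAA, read on the opposite strand in each case, began 112 bases before the start of Aars, 30 before that of Gars and 15 before that of Tars.

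The libraries differed in a way that reaches every synthetase. Messages of the mitochondrial genome took 30.7, 33.9 and 44.6% of the CPM in wild type and 22.2, 30.3 and 25.3% in TFEB-/-, so that the CPM of other genes was higher in TFEB-/-. The median log2 fold change of all 12437 genes was 0.23, and 75.2% of them had a positive value. Changes are therefore also given relative to that median, and after median-ratio scaling, which divides each library by its median ratio to the average library and left a median of 0.01. Tfeb itself read 17, 30 and 23 CPM in wild type and 6, 5 and 7 in TFEB-/-, a log2 fold change of -1.85 (SE 0.24, limma adjusted p = 0.027), all TFEB-/- libraries below all wild-type ones. Heart muscle markers summed to 51899 to 72713 CPM in wild type and 59703 to 80060 in TFEB-/-, so the labelled cell type was present in every library. The 9 macrophage markers summed to 21 to 32 and 43 to 54 CPM, the 10 endothelial markers to 485 to 571 and 429 to 535, the 8 fibroblast markers to 108 to 131 and 122 to 168, the 7 smooth muscle and pericyte markers to 232 to 276 and 306 to 392, and the 5 blood markers to 5 to 35 and 6 to 10, with Alas2 at 0. All 9 macrophage markers had a positive log2 fold change, as deposited (median 0.61) and with median-ratio scaling (median 0.39), and limma called 0 of them. Of the 7 smooth muscle and pericyte markers, 3 had a positive and 4 a negative log2 fold change. With median-ratio scaling these were 2 and 5. Among the 7, Acta2 read 66, 118 and 70 CPM in wild type and 161, 233 and 185 in TFEB-/-, which raised their sum. Limma called 1 fibroblast marker, Pdgfra, and 1 pericyte marker, Cspg4, both higher in TFEB-/-. Pdgfra read 2, 2 and 2 CPM against 3, 3 and 3, a spread of 0 in rounded values, and it was not called with median-ratio scaling (adjusted p = 0.336). On that scale the endothelial marker Cldn5 was called lower (adjusted p = 0.021), and all 10 endothelial markers had a negative log2 fold change. The part of these cells in the values below was not tested. More or fewer cells of a type cannot be told apart from more or less RNA per cell in bulk RNA.

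None of the 36 synthetases passed the test. In the limma fit over all genes 0 of 36 had an adjusted p below 0.05, against 4.44% of all genes tested. At an unadjusted p below 0.05 there were 10 of 36 (27.8%), all higher in TFEB-/-, against 23.3% of all genes. The 3 TFEB-/- values lay above the 3 wild-type values in 11 of 36 (30.6%), against 21.2% of all genes, and below them in 0 of 36, against 2.28%. With median-ratio scaling limma again called 0 of 36, against 5.48% of all genes, and 4 of 36 had an unadjusted p below 0.05, against 22.3%. On that scale 2 genes, Hars and Sars, lay wholly above, against 14.3% of all genes, and 5, Gars, Cars2, Fars2, Mars2 and Yars2, lay wholly below, against 11.8%. Data were also simulated from the levels and spread of these libraries, with 200 of 12437 genes changed. There the test recovered 5.33% of changes of 1.5-fold and 44.7% of changes of 2-fold for genes that averaged 10 CPM or more. The simulated noise was independent between genes, without a shift shared by a whole library, and fewer genes were changed than were called here. Recovery in the real libraries may therefore differ from these shares. The largest ratio of group means among the synthetases that were higher in TFEB-/- was 1.48.

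**Figure D1:**
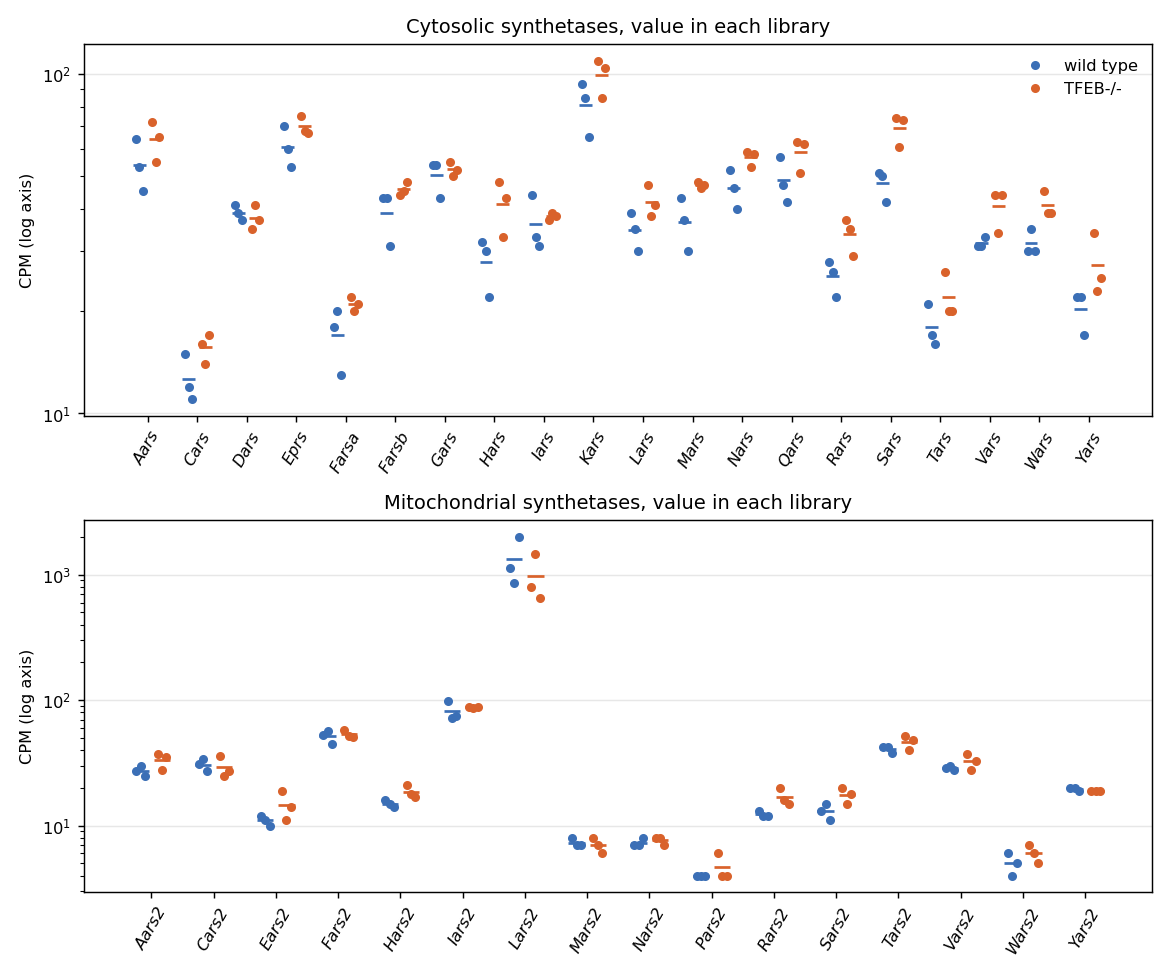
CPM of each synthetase in each library, on a log axis, for the 20 cytosolic (upper) and 16 mitochondrial genes (lower). Points are libraries and short lines are group means of 3. Lars2 lies at 650 to 1997 CPM, and the other 35 genes lie between 4 and 109.

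As groups, the cytosolic and the mitochondrial enzymes had medians close to that of all genes, with 0 of 20 and 0 of 16 past the threshold. The median log2 fold change was 0.30 over the 20 cytosolic genes, of which 19 had a positive value, and 0.17 over the 16 mitochondrial genes, of which 12 did. Relative to all genes tested these medians were 0.07 and -0.07, with 16 of 20 cytosolic and 6 of 16 mitochondrial genes above the median of all genes. With median-ratio scaling the medians were 0.06 and -0.06. The difference of either median from that of all genes was not tested. Among the cytosolic genes 7 of 20 (35.0%) had an unadjusted p below 0.05 and among the mitochondrial ones 3 of 16 (18.75%), against 23.3% of all genes. With median-ratio scaling there were 2 of each, against 22.3% of all genes.

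**Figure D2:**
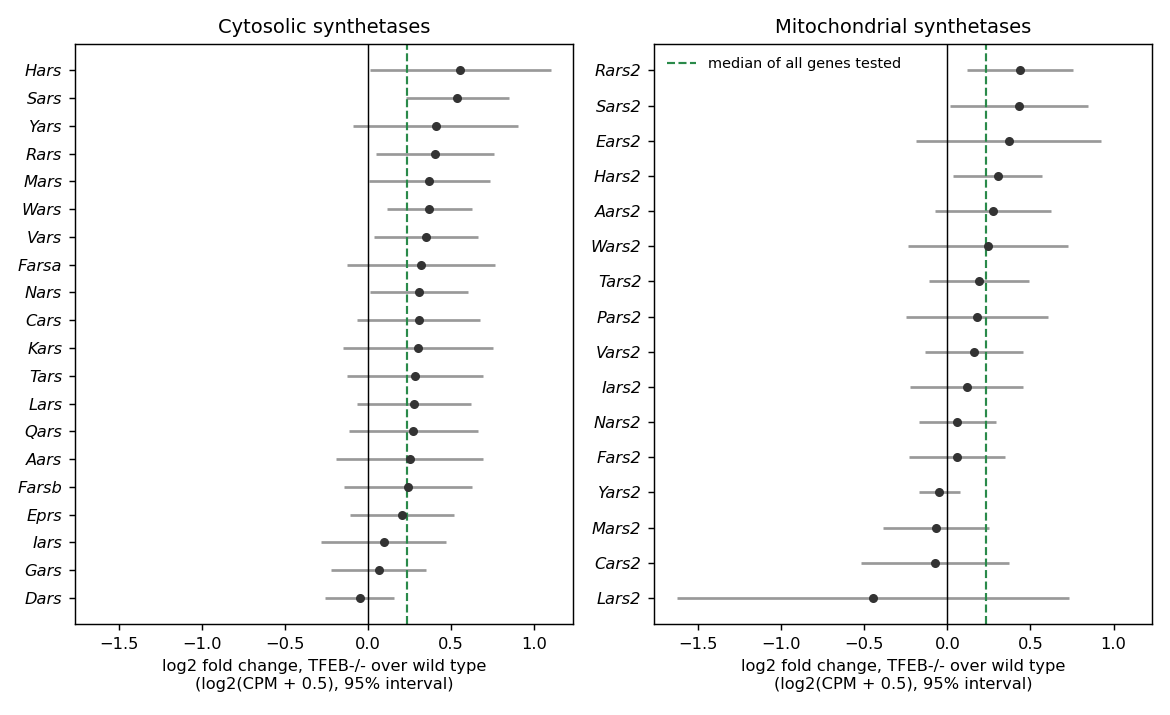
Log2 fold change of each synthetase, TFEB-/- over wild type, with its 95% interval from limma. The dashed green line is the median of all genes tested, 0.23, most cytosolic genes lie to its right and most mitochondrial genes to its left, and the intervals of all but Dars and Yars2 include it.

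Sars, which charges the serine tRNA, came closest to the threshold. It read 51, 50 and 42 CPM in wild type and 74, 61 and 73 in TFEB-/-. The lowest TFEB-/- library was above the highest wild-type library, and with median-ratio scaling the groups did not overlap either. The log2 fold change was 0.54 (SE 0.12, 95% interval 0.23 to 0.85), with a limma adjusted p of 0.0854, and with median-ratio scaling 0.30 with an adjusted p of 0.116. Hars, for histidine, read 32, 30 and 22 CPM in wild type and 48, 33 and 43 in TFEB-/-. Its second TFEB-/- library was within 1 CPM of the highest wild-type library. The log2 fold change was 0.55 (SE 0.21), the largest of the 36, with a limma adjusted p of 0.207, and 0.32 with median-ratio scaling.

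A further 7 cytosolic genes had TFEB-/- values that lay wholly above wild type as deposited and overlapped after median-ratio scaling. Wars, the tryptophan enzyme, read 30, 35 and 30 CPM in wild type and 45, 39 and 39 in TFEB-/- (log2 fold change 0.37, limma adjusted p = 0.117). Vars, for valine, read 31, 31 and 33 against 44, 34 and 44. Vars differed by 0.35 on the log2 scale with a limma adjusted p of 0.182, and without the second TFEB-/- library, which was nearest to wild type, it was called, with an adjusted p of 0.0437. Yars, for tyrosine, read 22, 22 and 17 CPM against 34, 23 and 25, its second TFEB-/- library again nearest to wild type. Farsb, the beta subunit of the phenylalanine enzyme, read 43, 43 and 31 against 44, 45 and 48, a margin of 1 CPM. Nars, for asparagine, read 52, 46 and 40 against 59, 53 and 58. The remaining genes of these 7, Mars and Rars, belong to the multisynthetase complex.

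The 8 enzymes of the complex had a median log2 fold change of 0.27, which is 0.04 above that of all genes, and the 12 other cytosolic enzymes had 0.31, which is 0.08 above, with 11 of these 12 above the median of all genes. Neither list held a gene past the threshold. Mars, for methionine, read 43, 37 and 30 CPM in wild type and 48, 46 and 47 in TFEB-/-, so the wild-type libraries were spread and the TFEB-/- libraries were close together. Rars, for arginine, read 28, 26 and 22 against 37, 35 and 29, a difference of 0.40 on the log2 scale. Kars, for lysine, read 93, 85 and 65 against 109, 85 and 104, and the groups overlapped. Qars, for glutamine, read 57, 47 and 42 against 63, 51 and 62, and overlapped. Dars, for aspartate, read 41, 39 and 37 against 35, 41 and 37, and was the only cytosolic gene with a negative log2 fold change, -0.05, or -0.29 relative to all genes. Iars, for isoleucine, had 0.09, Gars, for glycine and outside the complex, had 0.06, and the groups of both overlapped on the deposited scale. The cytosolic genes not given by library here, Aars, Cars, Eprs, Farsa, Lars and Tars, lay between 11 and 75 CPM, with log2 fold changes of 0.20 to 0.32 and overlapping groups.

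Of the 3 scaffold proteins of the complex, Aimp1, Aimp2 and Eef1e1, limma called 0, and 2 had an unadjusted p below 0.05, against 23.3% of all genes. Aimp1 read 41, 45 and 32 CPM in wild type and 59, 52 and 54 in TFEB-/-, wholly above, with a log2 fold change of 0.49 and an adjusted p of 0.14. Aimp2 read 17, 20 and 16 against 27, 20 and 25, and touched. Grouped by the fold of the catalytic domain, the 19 class I and 17 class II enzymes had nearly the same median, 0.27 and 0.28. Eprs, which charges both glutamate and proline tRNAs, was counted as class I only, although the mitochondrial proline enzyme, Pars2, is class II.

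Among the mitochondrial enzymes Rars2, for arginine, had the largest positive difference. Rars2 read 13, 12 and 12 CPM in wild type and 20, 16 and 15 in TFEB-/-, a log2 fold change of 0.44 (SE 0.12) with a limma adjusted p of 0.129, and the groups did not overlap. Hars2, for histidine, read 16, 15 and 14 against 21, 18 and 17, also without overlap, a difference of 0.30. Sars2, for serine, read 13, 15 and 11 against 20, 15 and 18, a difference of 0.43, and the groups touched. At this level rounding to whole CPM is a visible part of each difference. After median-ratio scaling the groups of Rars2 and Hars2 overlapped.

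The mitochondrial genes at the other end were Lars2, Cars2, Mars2 and Yars2, all with log2 fold changes below 0. Cars2, for cysteine, read 31, 34 and 27 CPM in wild type and 36, 25 and 27 in TFEB-/- (-0.07 on the log2 scale, or -0.31 relative to all genes). Yars2, for tyrosine, was the steadiest gene of the 36, at 20, 20 and 19 against 19, 19 and 19. Mars2, for methionine, read 8, 7 and 7 against 8, 7 and 6. Fars2, for phenylalanine, read 53, 57 and 45 against 58, 52 and 51, and Tars2, for threonine, 42, 42 and 38 against 52, 40 and 48. Their groups overlapped or touched as deposited, and after median-ratio scaling Cars2, Fars2, Mars2 and Yars2 lay wholly below wild type, with limma adjusted p-values no smaller than 0.185. Iars2, for isoleucine, read 98, 72 and 75 against 88, 87 and 88, its highest and lowest values both in wild type. The other mitochondrial genes, Aars2, Ears2, Nars2, Pars2, Vars2 and Wars2, lay between 4 and 37 CPM, with log2 fold changes of 0.06 to 0.37 and overlapping groups.

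Lars2, the leucine enzyme of the mitochondrion, stood apart from the other 35. It read 1129, 861 and 1997 CPM in wild type (1329 ± 594, SD, n = 3) and 800, 1464 and 650 in TFEB-/- (971 ± 433, SD, n = 3). The third wild-type and the second TFEB-/- library were the highest, and the groups overlapped widely. The log2 fold change was -0.45 (SE 0.46, 95% interval -1.63 to 0.73, limma adjusted p = 0.55), so the interval covers both a large decrease and an increase. The coefficient of variation was 44.7% in wild type and 44.6% in TFEB-/-, against at most 21.2% and 27.6% for any other synthetase. The gene made up 62.7 to 85.9% of the summed CPM of the mitochondrial enzymes.

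**Figure D3:**
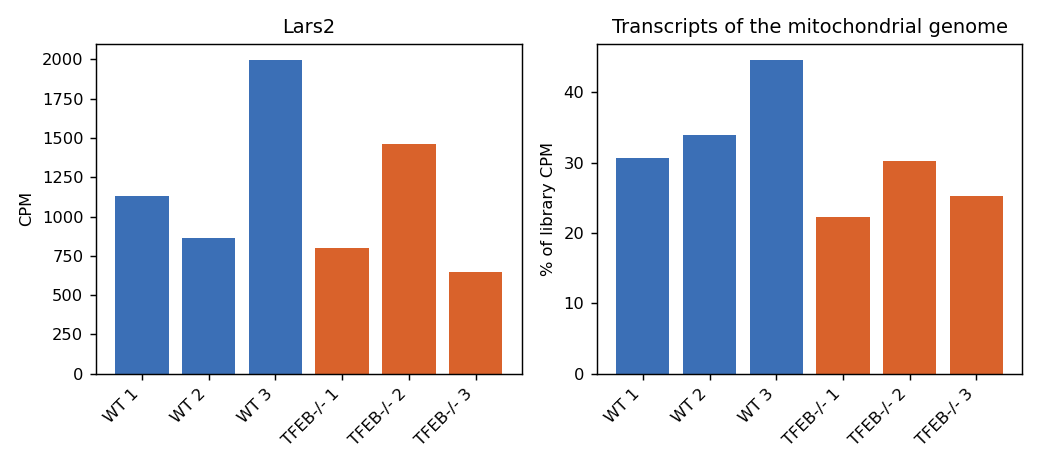
Lars2 in CPM (left) and the share of the library's CPM from messages of the mitochondrial genome in percent (right), 1 bar for each library, wild type in blue and TFEB-/- in orange. The third wild-type library is highest in both, at 1997 CPM and 44.6%, and among TFEB-/- the second library is highest in both, at 1464 CPM and 30.3%. Between the other libraries of each group the order differs: the second wild-type and the third TFEB-/- library have the higher share and the lower Lars2 value.

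Other entries of the table and the transcript sequences were read beside Lars2. Of 354 entries annotated as rRNA, 354 were at 0 in all libraries, as were both mitochondrial rRNAs, mt-Rnr1 and mt-Rnr2, and 3295 of 3302 entries annotated as lincRNA, Malat1 among them, against 8737 of 21547 protein-coding entries. Of the 11160 runs of 31 bases in the 9 Lars2 transcripts of GENCODE M21, 0 occurred on either strand of the transcripts of the 37 genes of the mitochondrial genome. A noncoding gene on chromosome 16, Gm15564, shared 22 runs of 31 bases with Lars2 and was listed at 0 in all libraries. Whether reads from other transcripts were counted to Lars2 was not tested.

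Summed over each library, the cytosolic enzymes gave 848, 775 and 653 CPM in wild type (758.7 ± 98.5, SD, n = 3) and 990, 850 and 930 in TFEB-/- (923.3 ± 70.2, SD, n = 3). Every TFEB-/- library was above every wild-type library, by 2 CPM at the closest. The third wild-type library, which had the most mitochondrial messages, was the lowest of the 6 in 17 of 20 cytosolic genes, and the first TFEB-/- library, which had the fewest, was the highest in 15 of 20. With median-ratio scaling the sums were 833, 829 and 799 against 836, 836 and 875, and the difference between the means dropped from 164.7 to 28.6. The part of the mitochondrial messages in the deposited difference was not tested further.

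The mitochondrial enzymes summed to 1508, 1221 and 2325 CPM in wild type and 1236, 1828 and 1037 in TFEB-/-, and Lars2 made up most of each sum. Without Lars2, a choice made after its values were seen, the sums were 379, 360 and 328 in wild type and 436, 364 and 387 in TFEB-/-, and the groups overlapped. With median-ratio scaling they were 372, 385 and 401 against 368, 358 and 364, so that the direction turned and all TFEB-/- libraries were below all wild-type ones.

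**Figure D4:**
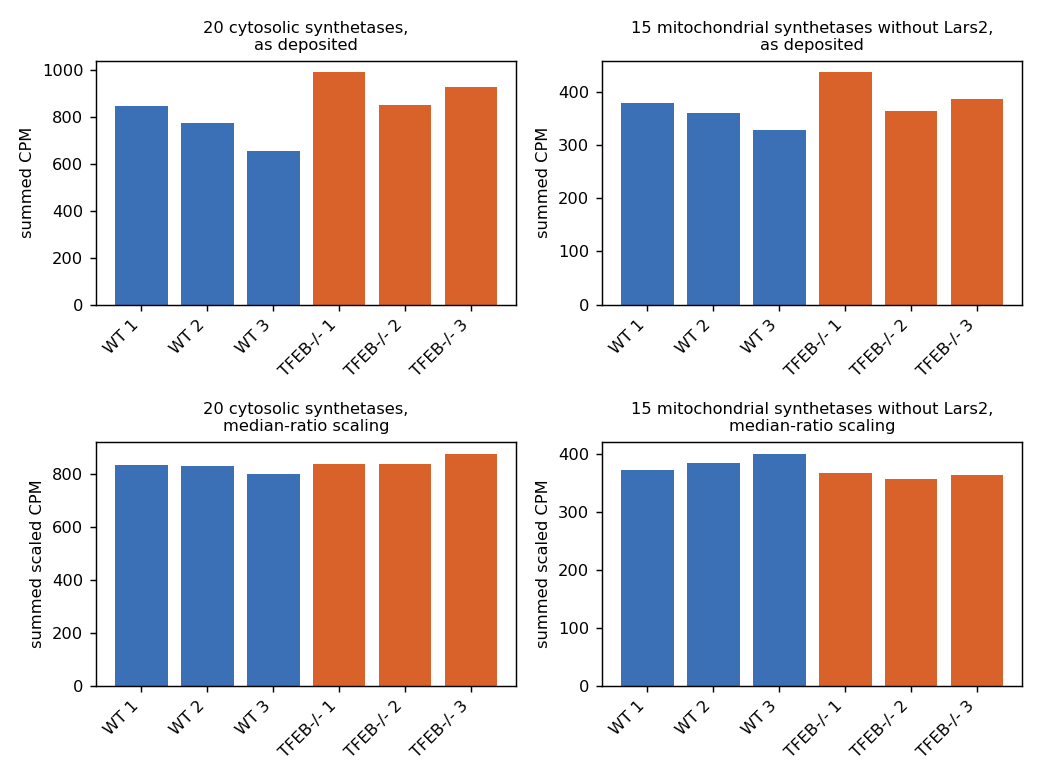
Summed CPM in each library of the 20 cytosolic synthetases (left) and of the 15 mitochondrial synthetases without Lars2 (right), as deposited (upper) and after median-ratio scaling (lower). Wild type is blue and TFEB-/- orange. The mitochondrial sum is higher in TFEB-/- by 40.0 CPM on average as deposited and differs by -22.8 after scaling, and the cytosolic sum is higher in both.

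The balance of the compartments within a library does not depend on how libraries are scaled. The cytosolic enzymes held 69.1, 68.3 and 66.6% of the synthetase CPM other than Lars2 in wild type (68.0 ± 1.30%, SD, n = 3) and 69.4, 70.0 and 70.6% in TFEB-/- (70.0 ± 0.595%, SD, n = 3). The groups did not overlap, and the gap between the highest wild-type and the lowest TFEB-/- library was small beside the spread within wild type. With Lars2 the share was 35.99, 38.8 and 21.9% against 44.5, 31.7 and 47.3%, and the groups overlapped.

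Setting the enzymes for the same amino acid side by side gave 17 pairs over 16 amino acids, since Farsa and Farsb both pair with Fars2 and Eprs, which charges both glutamate and proline tRNAs, pairs with Ears2 and Pars2. The cytosolic gene had the larger log2 fold change in 13 pairs and the mitochondrial gene in 4, the pairs of Aars2, Ears2, Iars2 and Rars2. The largest difference, 0.73, was that of Lars and Lars2 and carries the spread of Lars2. It was followed by Yars and Yars2 with 0.46, Mars and Mars2 with 0.44, and Cars and Cars2 with 0.38. The 17 differences were not tested, and several share a gene.

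**Figure D5:**
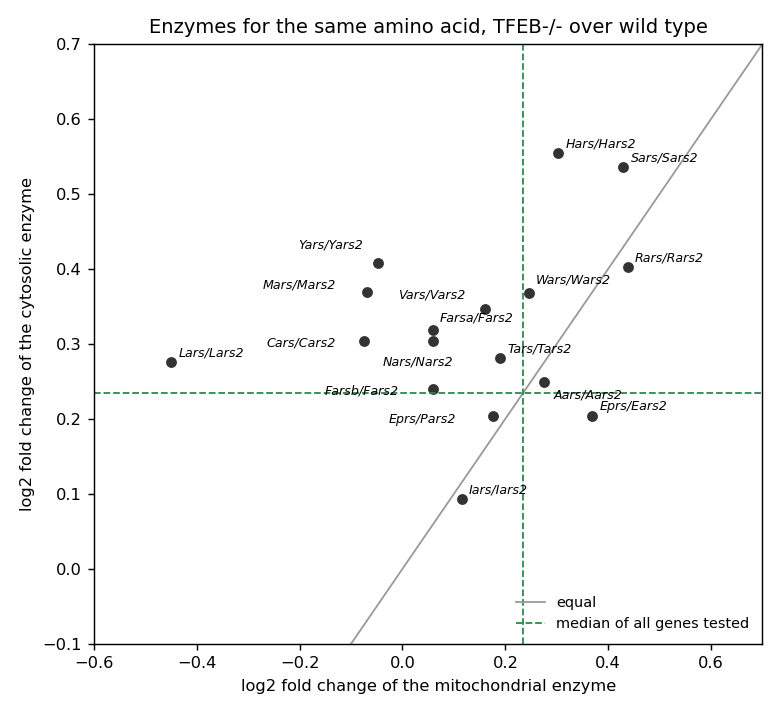
Log2 fold change, TFEB-/- over wild type, of the cytosolic enzyme against that of the mitochondrial enzyme for the same amino acid, 1 point for each of 17 pairs. The grey line marks equal change and the dashed lines the median of all genes tested, 0.23. There are 13 points above the grey line.

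The ratio of the enzymes of a pair within a library is also free of the scaling. The ratio of Mars to Mars2 was 5.38, 5.29 and 4.29 in wild type and 6.00, 6.57 and 7.83 in TFEB-/-. That of Yars to Yars2 was 1.10, 1.10 and 0.895 against 1.79, 1.21 and 1.32. In both pairs every TFEB-/- library was above every wild-type library, as it was for Farsa to Fars2 and for Vars to Vars2. In the other 13 pairs the groups overlapped. Ratios of other gene pairs were not computed, so how common such a separation is over all genes was not tested. Mars2 was at 6 to 8 CPM, where rounding to whole CPM is a large part of the value. The ratio of Sars to Sars2 was 3.92, 3.33 and 3.82 against 3.70, 4.07 and 4.06, and overlapped. Rars to Rars2 gave 2.15, 2.17 and 1.83 against 1.85, 2.19 and 1.93, and overlapped as well.

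Sums and shares of CPM, as above, weight long transcripts more, so the order of levels among genes was taken as CPM per kb of transcript. With the median length of a gene's protein-coding transcripts, Lars2 was highest, at 1598 CPM per kb over all libraries, 19.5 times the next gene, and with the longest transcript it was 7.17 times the next. With the median length, Tars2 had 46.2 and Fars2 31.6 CPM per kb among the other mitochondrial genes. The leading cytosolic genes were then Qars with 81.9, Vars with 44.2 and Kars with 43.6. With the longest transcript Tars2 had 13.5 and Fars2 24.8, Qars 19.2 and Vars 8.74. Kars, with 41.2, and Gars, with 21.6, then led the cytosolic genes. Mars2 was the lowest, at 0.635 CPM per kb. The order between these ends is not firm: with the longest transcript 18 of 36 genes moved by more than 3 ranks, the largest move being 18, and Lars2 stayed first and Mars2 last. With the median length, the cytosolic gene had the higher level per kb in 10 of the 17 pairs. With the longest transcript the pair of Yars and Yars2 turned as well, to 8.19 and 6.89 CPM per kb.

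Some members are neighbours in the genome (GRCm38). Hars and Hars2, both among the genes with no overlap between groups as deposited, lie on opposite strands with 5' ends that overlap, their starts being 197 bases apart. The starts of Eprs and Iars2 are 33.6 kb apart on chromosome 1, those of Vars and Vars2 667 kb apart on chromosome 17, and those of Aars and Kars 978 kb apart on chromosome 8. Sars lies at 108424865 to 108445209 on the minus strand of chromosome 3.

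Genes with related functions were read in the same fit, in which limma called 4.44% of all genes and 23.3% had an unadjusted p below 0.05. The lists hold few genes, so their counts are given as descriptions beside these shares. Of 10 related enzymes measured, limma called 0, and 4 had an unadjusted p below 0.05; among the 10, Gatb, a subunit of the enzyme that makes mitochondrial glutamine tRNA by amidation, read 40, 48 and 37 CPM in wild type and 53, 49 and 53 in TFEB-/-. Aarsd1, an editing protein related to the alanine enzyme, read 28, 31 and 24 against 35, 30 and 36. Of 6 cytosolic elongation factors limma called 0 as deposited, with 3 at an unadjusted p below 0.05, and 1 after median-ratio scaling. That gene, Eef1a1, read 251, 294 and 257 CPM against 1004, 507 and 688, a log2 fold change of 1.40 with a limma adjusted p of 0.0623, and 0.0213 after scaling. Eef1a2, the form that predominates in adult muscle, read 1357, 1510 and 1067 against 1709, 1477 and 1707, and overlapped. Eef2, the translocase, read 1268, 1064 and 963 against 1811, 1265 and 1642, and overlapped by 3 CPM.

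Of 10 mitochondrial translation factors limma called 0, and 2 had an unadjusted p below 0.05. Their median log2 fold change was 0.09, which is -0.14 relative to all genes. Tufm, the mitochondrial elongation factor that binds charged tRNA, read 241, 263 and 196 CPM in wild type and 272, 227 and 250 in TFEB-/-, and Gfm1, the mitochondrial translocase, 186, 143 and 148 against 157, 168 and 159; both overlapped. Of 10 genes that mature mitochondrial tRNAs limma called 0, with 2 at an unadjusted p below 0.05 and a median of 0.25, close to that of all genes. Hsd17b10, a subunit of mitochondrial RNase P, read 106, 115 and 85 against 117, 93 and 120, and Elac2, which trims the 3' end, 26, 22 and 22 against 31, 23 and 31.

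The ATF4 list, of which 25 genes were tested, held 2 genes called higher by limma and 0 called lower (4.44% of all genes were called), and 7 (28.0%) had an unadjusted p below 0.05, against 23.3% of all genes. The fit put 19 of the 25 above a log2 fold change of 0 and 6 not, beside 75.2% positive over all genes. The 19 count Phgdh, which read 1, 1 and 0 CPM in both groups and so did not change. Pycr1, at 1 CPM in every library, did not change either and is counted in the 6. Several genes of the list lay at 0 to 3 CPM, where rounding to whole CPM is a large part of the value. The median log2 fold change of the list was 0.37, or 0.14 relative to all genes. Slc7a5, the light chain of a transporter of large neutral amino acids, read 4, 5 and 5 CPM in wild type and 11, 9 and 12 in TFEB-/-, a log2 fold change of 1.11 with an adjusted p of 0.026. Psat1, an enzyme of serine synthesis, read 1, 1 and 1 against 3, 3 and 3, with an adjusted p of 4.3e-05, and its spread of 0 is that of values rounded to whole CPM. Both were also called after median-ratio scaling. The members of the list that limma did not call went both ways: Slc3a2, the heavy chain of the same transporter, read 39, 45 and 27 against 65, 56 and 70, Atf4 itself 130, 116 and 92 against 154, 112 and 173, and Stc2, a secreted glycoprotein, 20, 13 and 18 against 10, 12 and 6.

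Of 7 genes, the eIF2 kinases, subunits of the phosphatase and Eif2s1, a subunit of eIF2 itself, limma called 0. There were 2 at an unadjusted p below 0.05, Eif2ak2 and Eif2s1. Ppp1r15a, the stress-induced phosphatase subunit, read 124, 110 and 92 CPM in wild type and 128, 95 and 149 in TFEB-/-, and Eif2ak1, the kinase regulated by heme, 40, 32 and 26 against 42, 39 and 31. Of 11 interferon response genes, a list kept because interferon is known to induce Wars, limma called 0, with 0 at an unadjusted p below 0.05. Most of the 11 lay at 1 to 5 CPM in every library, where rounding to whole CPM is a large part of the value. Their counts therefore say little about an interferon response. Irf1 read 31, 32 and 42 against 38, 55 and 39, and overlapped. Wars was wholly above wild type as deposited, as were 21.2% of all genes, and overlapped after median-ratio scaling. A part of interferon in the Wars values was not tested.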

How the data were processed

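RNA of 3 wild-type and 3 TFEB-/- libraries was prepared, per the labels' protocols, from 400 ng of total RNA with a stranded poly(A) kit and read as pairs of 75 bases. The deposited table holds a score per gene, taken from the table's name to be CPM that the authors rounded to whole numbers. The build GRCm38 and the tools kallisto, Salmon, STAR, HISAT2, RSEM, StringTie, edgeR and DESeq2 are listed in the submitters' processing notes; their roles are not given in the sources used here. Libraries summed to 999505 to 999655. Read counts cannot be recovered, so depth is unknown, no counting interval is given, and the count models that DESeq2 and edgeR fit were not used.

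Genes that reached 1 CPM in 3 or more libraries were fitted with limma 3.58.1 (R 4.3.3) on log2(CPM + 0.5), genotype as the only term, with a mean-variance trend. The pseudocount understates changes of low genes. Two-sided p-values were adjusted over 12437 genes (Benjamini-Hochberg), with a threshold of 0.05. The fit was tested on simulated data. Positions and lengths come from GENCODE M21.

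Members and lists were chosen with earlier results of these data known. Library values are given for members past the threshold or not overlapping between groups, for the 3 highest per kb and for the 2 largest changes each way in each compartment, for Tfeb, and in each related list for called genes or otherwise the 2 most abundant, of which 1 is not reported here. Mars2, Yars2, Iars2, Eef1a1, Slc3a2, Atf4, Stc2, Pdgfra, Cldn5, Cspg4 and Acta2 were named after their values were seen. Alternatives were another scaling (median ratio, or CPM without mitochondrial messages), pseudocounts of 0.1 and 1, filters, robust moderation, the replicate number as a block, and each library left out.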

Additional observations from a re-analysis of the deposited data

How the results depend on the processing

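No synthetase was called under any of the other scalings, pseudocounts, filters or fits tried with all 6 libraries, where the smallest adjusted p of a synthetase was between 0.0555 and 0.168. Leaving out 1 library at a time, limma called 0 to 1 cytosolic genes (1, Vars, without the second TFEB-/- library) and 0 mitochondrial genes. Over all genes, against 487 higher and 65 lower, median-ratio scaling gave 481 and 200, CPM without mitochondrial messages gave 190 lower, robust moderation gave 780 higher, and leaving out 1 library gave 154 to 406 higher and 38 to 87 lower. With the replicate number as a block there were 159 higher and 26 lower, and with the block and median-ratio scaling 256 and 121; the block called no synthetase. Same-numbered libraries correlated by 0.144, -0.049 and 0.088 in their deviations from the group means, and not every library correlated best with its own number, so they share only a number. The difference between group means of the cytosolic sum, 164.7 CPM, was 28.6 with median-ratio scaling and 53.4 without mitochondrial messages. That of the mitochondrial sum, -317.7, was -605.0 with median-ratio scaling and -875.6 without mitochondrial messages, and that of the sum without Lars2, 40.0, was -22.8 and -27.9 under these scalings. Both scalings shift all genes together, and under each 9 of 36 synthetases changed the sign of their log2 fold change. Relative to all genes, Farsb, at 0.0051, turned to -0.0017 with median-ratio scaling, with or without the block, -0.0012 without mitochondrial messages and -0.0022 with no filter. Leaving out 1 library, the following crossed 0: Farsb (-0.059 to 0.105), Aars (-0.018 to 0.084), Aars2 (-0.025 to 0.125), Eprs (-0.045 to 0.014), Farsa (-0.0023 to 0.202), Pars2 (-0.161 to 0.033), Qars (-0.013 to 0.0996), Tars (-0.0035 to 0.1003), Tars2 (-0.081 to 0.026) and Wars2 (-0.132 to 0.118). The cause was not tested. Rounding to whole CPM limits the 4 genes below 10 CPM in every library most.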
